A study of Arabidopsis thaliana with 40 samples.

Results

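The peptide CLE40 and 8 receptors of the CLAVATA type were examined in cells of the quiescent center (QC), which divide rarely and lie at the core of the stem cell niche in the *Arabidopsis* root tip. The 9 genes were taken by locus from the 32678 *Arabidopsis* loci of the expression table: *CLE40* (AT5G12990), *ACR4* (AT3G59420), *CLV1* (AT1G75820), *CLV2* (AT1G65380), *CRN* (AT5G13290), *BAM1* (AT5G65700), *BAM2* (AT3G49670), *BAM3* (AT4G20270) and *RPK2* (AT3G02130). They were listed for their place in the pathway and not for a measured value, though with earlier results of these data known. Transcripts of 4 of the 9 genes (44.4%) were detected, a share near the 51.3% of all loci. All 8 receptors have transcripts over 2000 bases, a length at which more loci were detected (72.3% up to 3000 bases, 80.6% above). The 4 detected genes, from the 8 receptors, were *CRN*, *BAM1*, *BAM2* and *RPK2*, in order of level. The peptide itself and *ACR4*, *CLV1*, *CLV2* and *BAM3* were listed at 0 throughout.

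The samples were 40 cells of a single group, from Col-0 roots at 5 days after stratification that carried GFP under the *WOX5* promoter. Cell walls were digested, GFP-positive cells were sorted, and poly(A) RNA was amplified by CEL-Seq, a barcoded method based on in vitro transcription that reads the 3′ ends of transcripts. There was no treatment, mutant or other tissue, and the labels do not tie a cell to a plant. Profiles could be matched to 39 samples, and the remaining sample was not analysed here.

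CLE peptides are short secreted signals cut from a precursor protein that carries the signal near its C-terminal end. In the shoot, CLV3 acts through the receptor kinase CLV1, the receptor-like protein CLV2 with its partner CRN, and RPK2 to restrain the stem cell factor *WUSCHEL*. In the root tip, CLE40 from the differentiating columella acts through ACR4 and CLV1 on *WOX5* and on the division of the columella stem cells. The BAM proteins are the closest relatives of CLV1.

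To show the signal that this system carries, the part of the *CLE40* coding sequence that encodes the CLE peptide is printed with its 12 codons in capitals (TAIR10.1 genome, chr5:4109246-4109305, minus strand).
CLE40: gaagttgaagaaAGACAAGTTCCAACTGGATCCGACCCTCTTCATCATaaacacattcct

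Whether reads of related receptors could be exchanged depends on how much exact sequence they share. *BAM1* and *BAM2* were 81.5% identical over 2982 aligned coding bases, while each of the other 5 pairs among *CLV1*, *BAM1*, *BAM2* and *BAM3* was between 61.2% and 63.1% identical. The longest exact run shared by *BAM1* and *BAM2* was 41 bases. It is shown with 9 bases on either side, and beside the aligned windows of *BAM3* and *CLV1*, with each base that differs from *BAM1* in capitals. The windows lie at chr5:26284538-26284596 for *BAM1*, chr3:18420420-18420478 for *BAM2* and chr4:10952601-10952659 for *BAM3*, all on the plus strand, and at chr1:28463920-28463978 on the minus strand for *CLV1*.
BAM1: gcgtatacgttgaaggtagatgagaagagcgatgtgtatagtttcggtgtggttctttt
BAM2: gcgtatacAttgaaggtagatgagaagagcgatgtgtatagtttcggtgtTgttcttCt
BAM3: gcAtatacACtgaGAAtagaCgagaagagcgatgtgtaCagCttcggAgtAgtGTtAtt
CLV1: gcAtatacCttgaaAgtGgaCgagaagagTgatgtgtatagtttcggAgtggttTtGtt

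Within these 59 bases *BAM2* differed from *BAM1* at 3 positions, *CLV1* at 9 and *BAM3* at 14. Over the whole annotated transcript, 12 of the 3543 windows of 30 bases in *BAM1* occurred at another place of the nuclear genome, and none of them lay in the last 500 bases, where 3′ reads would be placed. The same held for 12 windows of *BAM2* and 13 of *CRN*, none in the last 500 bases. The other 6 genes had no window of 30 bases in common with another place. The read length of the CEL-Seq libraries is not given in the sources used here.

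Levels are given as CPM, the recovered count of a gene per 1000000 counts over *Arabidopsis* loci. Since CEL-Seq reads come from the 3′ end, CPM was not divided by transcript length, and the value per kilobase of coding sequence is given beside it where levels of genes are compared. The total count per profile ranged from 57655 (QC cell 4) to 7431708 (QC cell 22), with a median of 2096738 (QC cell 13). Ordered by depth, the profiles were nested, since over 38 steps the recovered count fell for 0 of 32771 rows. They are therefore described as 1 sample read at 39 depths and not as separate cells, with no test and no replicate error, and the label of a profile names a depth below. Fewer cells that express a gene and less RNA per cell cannot be told apart in such counts.

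The labelled cell type was compared with its markers in the deepest profile. Of 6 markers of the QC and stem cell niche 3 were detected, with a summed level of 42.1 CPM. They were *SCR*, a gene of both QC and endodermis, with 28.5 CPM, *WOX5* with 10.6 CPM and *AGL42* with 2.96 CPM. *PLT1*, *PLT2* and *BBM* were listed at 0, as was the GFP reporter. All 4 stele markers were detected with 59.3 CPM in sum, 1 of 2 epidermis markers with 8.48 CPM, and 0 of 3 root cap markers (*SMB*, *FEZ* and *BRN1*). For endodermis and cortex 1 of 2 markers was detected, *MYB36*, a regulator of endodermal differentiation, with 130.0 CPM, and *CASP1* was listed at 0. The part of other cell types in the levels of the receptors was not tested.

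In the deepest profile, 4 of the 9 genes (44.4%) had a value above 0, against 51.3% of all loci of the table. A level of at least 10 CPM was reached by 3 of the 9 genes and by 27.8% of all loci. A single gene of the 9, *BAM1*, was above 0 in every profile, which was the case for 15.3% of all loci. The 9 genes were thus detected at a share near that of the table as a whole. However, all 8 receptors have annotated transcripts over 2000 bases, and long loci were detected more often. Of loci with over 2000 to 3000 bases 72.3% were above 0, and of loci with over 3000 bases 80.6%. Against these shares, 4 of the 8 receptors is a lower share.

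*CRN*, which encodes a membrane-bound kinase-like protein and partner of CLV2, had the highest level. It had 836 counts in the deepest profile, or 112.5 CPM (95% exact Clopper-Pearson interval 105.0 to 120.4), more than 90.7% of the detected loci. Over the 28 profiles in which it was above 0, the lowest level was 104.2 CPM, the median 109.3 CPM and the highest 115.6 CPM. Successive profiles share most of their counts, so such ranges are narrow by construction. Intervals here and below cover counting error only, since no molecular identifiers are stated.

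*BAM1*, a CLV1-related receptor kinase, had 478 counts and 64.3 CPM (interval 58.7 to 70.4), more than 83.8% of the detected loci. Over all 39 profiles its level had a lowest value of 30.5 CPM, a median of 64.8 CPM and a highest value of 69.1 CPM. It was the first of the 9 genes to be seen, with 3 counts in the shallowest profile and 136 at the median depth.

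*BAM2*, the closest relative of *BAM1*, had 91 counts and 12.2 CPM (interval 9.86 to 15.0), close to the middle of the detected loci, of which 50.2% were lower. In the 36 profiles above 0 the lowest level was 6.50 CPM, the median 12.5 CPM and the highest 14.4 CPM. *BAM1* was therefore the main contributor of this pair at every depth.

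*RPK2*, a receptor kinase with leucine-rich repeats that also acts in embryo and anther development, had 26 counts and 3.50 CPM (interval 2.29 to 5.13), above 23.3% of the detected loci. Its level ranged from 3.34 to 5.39 CPM over 27 profiles, with a median of 4.40 CPM. It was the lowest of the 4 genes at every depth at which it was seen.

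**Figure D1:**
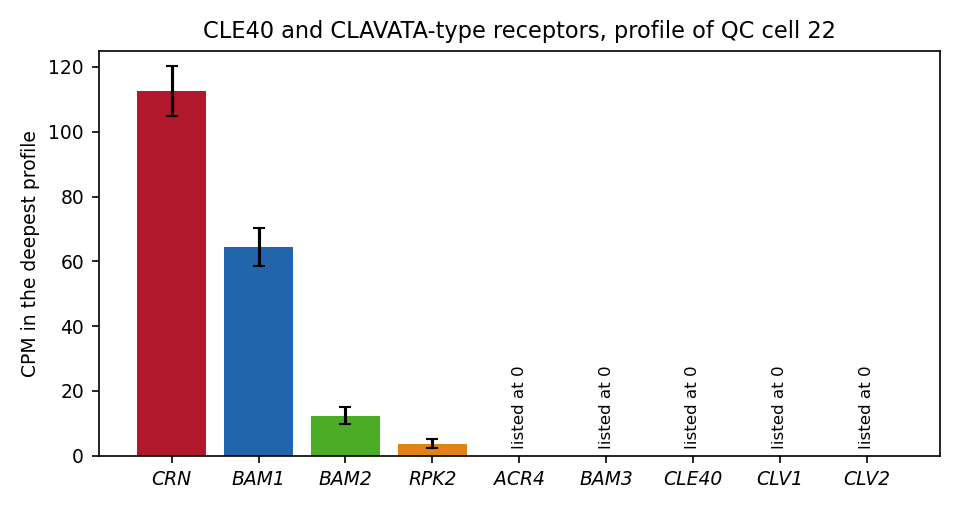
Level of each of the 9 genes in the deepest profile (QC cell 22), in CPM on a linear axis from 0, with 95% exact counting intervals as error bars. *CRN* stood at 112.5 CPM and *BAM1* at 64.3 CPM, *BAM2* and *RPK2* were lower, and 5 genes were listed at 0.

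No neighbours in this order had overlapping counting intervals. *CRN* had 1.75 times the CPM of *BAM1* (interval of the ratio 1.56 to 1.96), and 4.37 times its level per coding kilobase, since the *CRN* coding sequence is shorter (1206 against 3012 bases). *BAM1* had 5.25 times the CPM of *BAM2* (interval 4.19 to 6.65), and the same ratio per coding kilobase. *BAM2* had 3.50 times the CPM of *RPK2* (interval 2.24 to 5.64) and 4.02 times its level per coding kilobase. At the median depth the CPM ratios were 1.67, 5.04 and 2.45, in the same order of pairs, and their intervals ran from 1.34 to 2.08, from 3.31 to 7.92 and from 1.18 to 5.48. The order of the 4 receptors was thus the same on both scales, and the differences exceeded counting error. It was also the same at the median depth, but that profile is contained in the deepest and is no independent check. Spread between cells could not be estimated from nested profiles.

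Together the 8 receptors had 1431 counts, or 192.6 CPM (interval 182.7 to 202.8). *CRN* supplied 58.4% of this sum, *BAM1* 33.4%, *BAM2* 6.36% and *RPK2* 1.82%.

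The position of *CRN* in the genome may bear on its value, which was not tested. In the TAIR10.1 annotation *CRN* lies on the minus strand at chr5:4252842-4255378, and its 3′ end overlaps that of a gene on the plus strand, AT5G13280 (*AK-LYS1*), by 423 bases, of which 392 are exonic in both. The strand setting of the counting is not given in the sources used here, and without strand the 3′ reads of such a pair cannot be told apart. The partner had 87 counts in its own row, or 11.7 CPM, and was above 0 in 31 profiles, while *CRN* had 836 counts. A further gene on the opposite strand, AT5G13295, overlapped *CRN* by 369 bases. No such overlap was found at the 3′ ends of *BAM1*, *BAM2* and *RPK2*. *BAM1* lies at chr5:26281642-26285413, *BAM2* at chr3:18417568-18421263 and *RPK2* at chr3:380350-384582, all on the plus strand.

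Detection of the receptors was next set against depth. In the 3 profiles with totals from 57655 to 164018, *BAM1* was the only gene of the 9 above 0. In the 8 profiles from 221933 to 598893 *BAM2* was present as well. *CRN* was first listed in the profile with a total of 692301 (QC cell 32), and *RPK2* in the next, at 1105492 (QC cell 29). From there on, all 27 profiles held the same 4 genes, and a total of 7431708 added none of the other 5. Of all loci, 15.3% to 25.1% were above 0 in the first 3 profiles and 28.1% to 37.1% in the next 8. The share of all loci was 38.3% at 692301 and rose from 41.8% to 51.3% over the last 27 profiles.

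**Figure D2:**
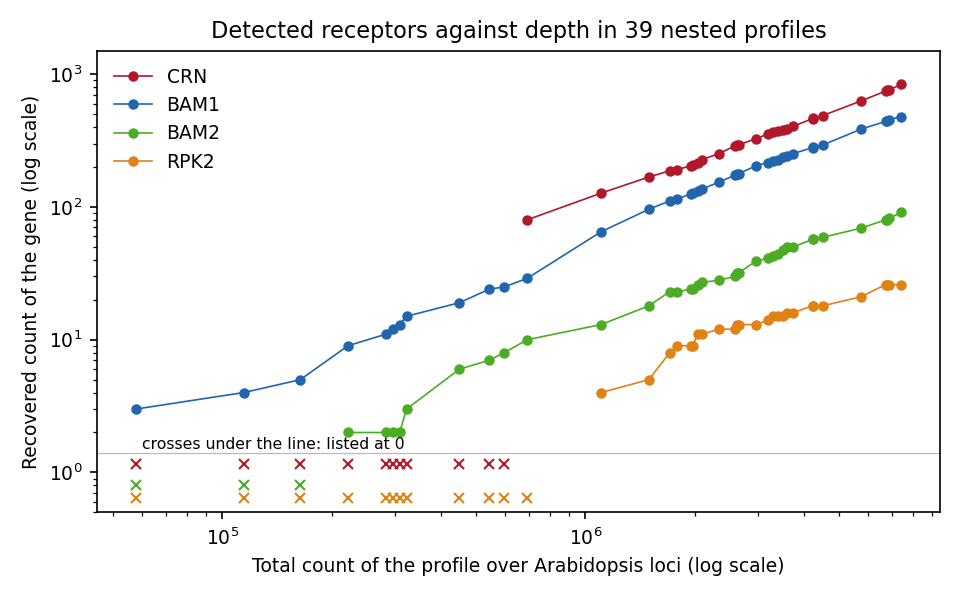
Recovered counts of *CRN*, *BAM1*, *BAM2* and *RPK2* against the total count of each of the 39 nested profiles, both on log scales, with crosses under the grey line for profiles in which a gene was listed at 0. *BAM1* and *BAM2* entered with 3 and 2 counts, whereas *CRN* entered with 80 counts.

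The order of first appearance did not follow the order of levels. *CRN* had the highest level of the 9 genes and yet was listed at 0 in 11 profiles, among them 8 in which the lower *BAM2* was present. At its first appearance *CRN* had 80 counts at once. In the profile just before, with a total of 598893, its rate in the deepest profile would have given 67.4 counts, and it was listed at 0. *BAM2* and *RPK2* entered with 2 and 4 counts, where their rates would have given 2.01 and 2.42 counts in the profile before. The smallest count above 0 in any profile was 2, so the entry of *BAM2* was at the lowest count possible.

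Such late entry was uncommon among abundant loci. Of the 1768 loci with at least 100 CPM in the deepest profile, 2.77% were above 0 in no more than 28 profiles, and *CRN* was among them. At the step at which *CRN* entered, 383 loci were first above 0, with a median first count of 3, and 7 of them had at least 30 counts. Over all steps, 283 of the 11783 loci that entered after the shallowest profile did so with at least 30 counts. A filter that removed genes with less than 200 covered bases is stated in the methods for cells picked by hand. Whether this was done for the CEL-Seq table is not stated, and its part in the late entry of *CRN* was not tested. A value of 0 in this table therefore sets no upper limit on the level of a gene.

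The counts added at each of the 38 steps are disjoint and show how evenly a gene was sampled. *CRN* had no counts added at the steps before its entry, 856.5 CPM at the step of its entry, and between 39.6 and 228.6 CPM, with a median of 109.1 CPM, at the 27 steps after it. For *BAM1* the lowest step was at 0, the median was 68.4 CPM and the highest step was 145.1 CPM, with counts added at 37 of 38 steps. *BAM2* ranged from 0 to 72.6 CPM with a median of 10.08 CPM, and *RPK2* from 0 to 31.5 CPM with a median of 0. The ranges of *CRN* and *BAM1* overlapped at single steps, although their medians were apart.

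After first appearance the chi-square per degree of freedom against a constant share, which is near 1 when counting error alone acts, was 1.06 for *CRN*, 0.991 for *BAM1*, 1.05 for *BAM2* and 1.59 for *RPK2*. The smallest expected count of a step was 1.66 for *CRN*, 0.832 for *BAM1*, 0.159 for *BAM2* and 0.0513 for *RPK2*. With so few expected counts these values are uncertain, most of all for *BAM2* and *RPK2*, and they are given as a description.

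**Figure D3:**
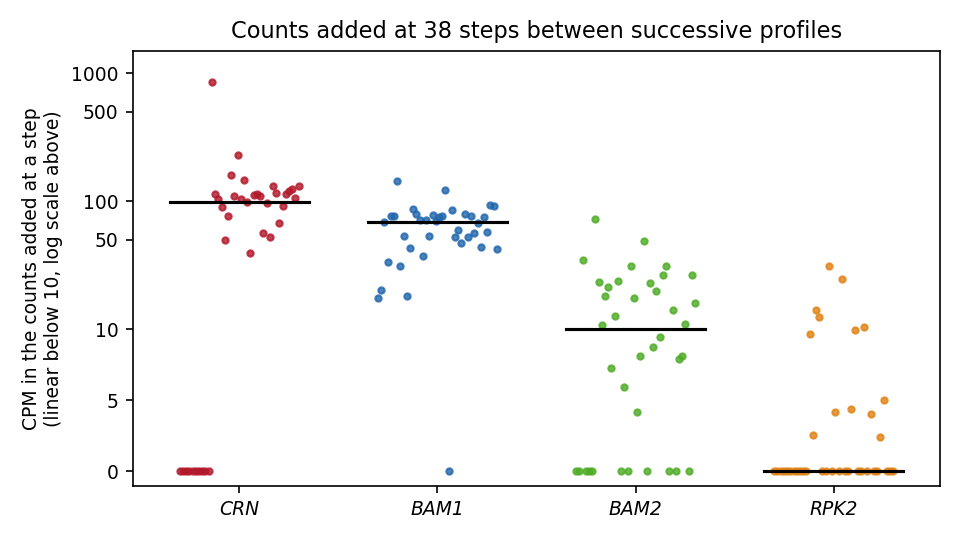
Level of each detected receptor in the counts added at the 38 steps between successive profiles, in CPM (linear below 10, log scale above), with 1 point per step and the median as a black line. The point of *CRN* at 856.5 CPM is the step of its first appearance, and its points at 0 are the steps before.

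The loci most like each receptor over the 38 steps were looked up among 1775 loci with a mean of at least 100 CPM in the steps. For *CRN* they were AT2G23950, AT4G20365 and *ICK6* (AT5G48820), a cyclin-dependent kinase inhibitor gene, with Pearson's r of 0.97, 0.97 and 0.96. All of them entered at the same step as *CRN*, with 202, 233 and 105 counts. AT2G23950 was also on the list of co-receptor loci, under a name that the gene table did not carry, and was left out of the counts of that list. Over the 27 steps after that entry their r with *CRN* was 0.33, 0.32 and 0.05, so the likeness rested on the shared step. For *BAM1* the highest values were 0.57, 0.57 and 0.56, for *UBQ13*, AT5G08420 and *AGL31*, and for *BAM2* they were 0.70, 0.68 and 0.66, for *UBQ13*, *GSTF3* and *SIS*. The median over the 1775 loci of their own highest r was 0.69, so the highest value of *BAM1* lay below this median and that of *BAM2* was close to it. The points share 1 nested series of counts, and *RPK2* had counts at too few steps to be included.

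The 5 genes listed at 0 differed in their annotated transcripts. *CLE40* is short, with a transcript of 259 bases of which 243 are coding, and no 3′ untranslated region is annotated. Few loci of this kind were detected at all. Of the 529 loci with an annotated transcript of at most 300 bases, 7.94% were above 0 in the deepest profile, and of the 3753 loci without an annotated 3′ untranslated region, 19.0%. Whether the peptide gene was transcribed in these cells cannot be told from its value, and the part of its short annotation in the value of 0 was not tested.

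The receptors listed at 0 have long transcripts instead. *ACR4*, a receptor kinase of the CRINKLY4 type, has 3535 annotated bases, *CLV1* has 3549 and *BAM3*, the receptor of CLE45 in protophloem, has 3417. Of the 2162 loci with transcripts over 3000 bases 80.6% were above 0, as were *BAM1*, *BAM2* and *RPK2*. *CLV2*, the receptor-like protein that lacks a kinase domain, has 2588 bases, a class of over 2000 and up to 3000 bases in which 72.3% of loci were above 0. Their annotated 3′ untranslated regions were 225 bases for *ACR4*, 287 for *CLV1*, 224 for *CLV2* and 189 for *BAM3*, while those of *BAM1*, *BAM2* and *RPK2* were 376, 427 and 401 bases. *CRN*, the highest of the 9 genes, had only 82 bases in the transcript with the longest coding sequence. Among 9 related receptors, the 5 detected had from 127 (*CRR2*) to 338 bases (*CRR3*), with *PXL2* at 197 bases and 85 counts. The 4 listed at 0 had from 124 (*CRR1*) to 261 bases (*MOL1*). *CRR1*, *CRR2* and *MOL1* are named after their values were seen. The part of this length in detection was not tested.

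The CLAVATA partners *CRN* and *CLV2*, whose proteins act as a complex, were on opposite sides of detection, with 836 counts against a listed 0. The pair known from the distal root tip, *CLV1* and *ACR4*, was at 0 on both sides. In the *CLV1* family 2 of 4 genes were detected, *BAM1* and *BAM2*, against 51.3% of all loci and 80.6% of loci with transcripts over 3000 bases. A listed 0 sets no upper limit in these comparisons, and whether the count of *CRN* includes reads of the overlapping *AK-LYS1* was not tested. They are therefore a description of listed values only.

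The rest of the pathway was described from 57 further genes, of which 28 (49.1%) were above 0 in the deepest profile, close to the 51.3% of all loci. The lists of genes by role differ in transcript length. Each count is therefore set beside the share of all loci in the length class of its list's median. Single genes can lie outside that class, such as *RPK1* (2014 bases) among related receptors and *MPK6* (1714 bases) in signalling. Of 30 other CLE peptide genes 8 were above 0 (26.7%), none of them reached 10 CPM, and their median transcript length was 765 bases, a class of over 500 and up to 1000 bases in which 45.7% of loci were detected. The highest were *CLE41* with 6.19 CPM (46 counts), which encodes a vascular peptide, *CLE1* with 4.44 CPM (33 counts) and *CLE12* with 2.15 CPM (16 counts), which correspond to 20.6, 19.7 and 6.03 CPM per coding kilobase. *CLE45*, the ligand of BAM3 and named here after its value was seen, was listed at 0 like its receptor.

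Among 9 related receptors, with a median transcript of 3126 bases, 5 were above 0 (55.6%), against 80.6% of all loci with over 3000 bases. *CRR3*, a relative of *ACR4*, had 28.9 CPM, followed by *RPK1*, the relative of *RPK2*, with 14.1 CPM and *PXL2* with 11.4 CPM. Per coding kilobase they had 11.8, 8.71 and 3.76 CPM, in the same order. *CRR3* had 215 counts where *ACR4* was listed at 0, and *RPK1* had 105 counts where *RPK2* had 26. *PXY*, the receptor of the CLE41 peptide, was at 0 and is named after its value was seen.

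Co-receptors of the SERK type, which pair with many leucine-rich repeat receptors, were detected in 3 of 3 cases, with a median transcript of 2570 bases, in the class in which 72.3% of loci were above 0. *BAK1* had 173.0 CPM (1286 counts) and was above 0 in every profile, *SERK2* had 32.8 CPM and *SERK1* 13.5 CPM. Per coding kilobase *BAK1* had 87.0 CPM and *CRN* 93.3 CPM, so *BAK1* was above *CRN* in CPM only. AT2G23950, left out of this list by its name, stood higher than *BAK1* at 268 CPM. Of 13 genes of signalling and peptide processing 11 were above 0 (84.6%). Their median transcript of 2164 bases lies in the same class of length. The highest levels were those of the kinase *MPK6* with 141.7 CPM, the phloem regulator *OPS* with 51.1 CPM and the G protein subunit *AGB1* with 32.7 CPM. Per coding kilobase they had 119.3, 24.9 and 28.8 CPM, so *OPS* was above *AGB1* in CPM only. *BRX*, which like *OPS* acts in protophloem and was named after its values were seen, resembled *CRN* in its entry. It was at 0 up to a total of 4504957 and then had 76 counts at once. *SERK2* likewise was at 0 up to a total of 1105492 and entered with 39 counts at 1497147.

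**Figure D4:**
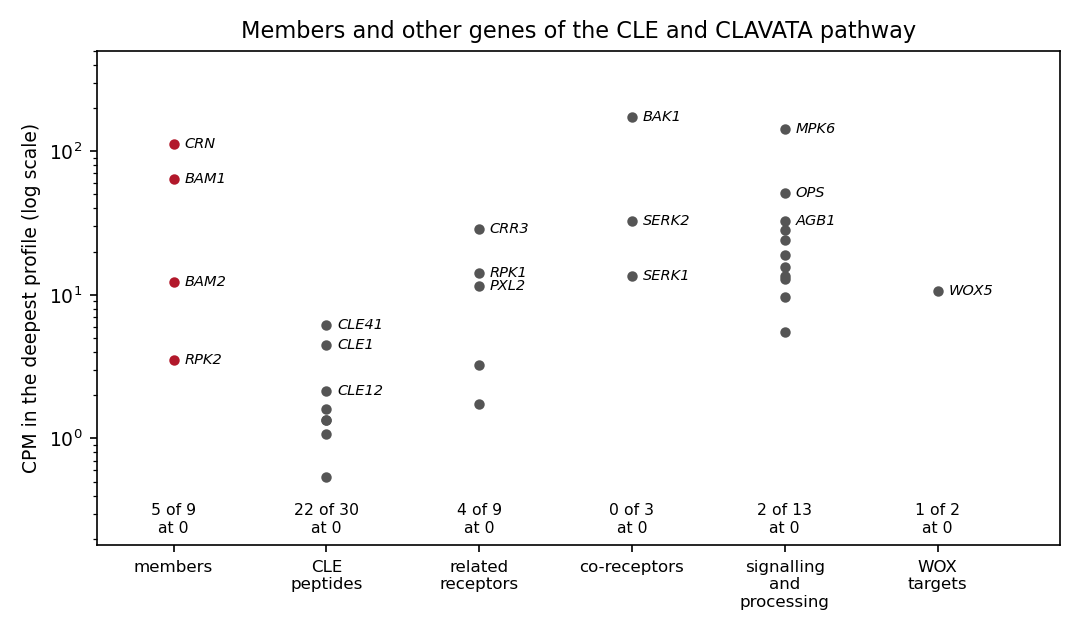
Level in the deepest profile, in CPM on a log scale, for the 9 genes and for 57 other genes of the pathway by role, with the number listed at 0 under each column. On this scale *CRN* and *BAM1* lay above every CLE peptide gene and related receptor shown and *CRN* below *BAK1*, while per coding kilobase *CRN* (93.3) and *BAK1* (87.0) were close and *BAM1* (21.4) was close to *CLE41* (20.6).

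*WOX5*, the stem cell factor on which CLE40 acts and whose promoter marked the sorted cells, had 79 counts and 10.6 CPM (interval 8.42 to 13.3), and it was above 0 in 30 profiles. In CPM this was below *BAM1* and *CRN*, and its interval overlapped that of *BAM2*. Per coding kilobase *WOX5* had 19.4 CPM, close to *BAM1* at 21.4 and above *BAM2* at 4.07. *WUS*, its counterpart in the shoot, was listed at 0.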

How the data were processed

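The deposited table held log2 values, in which the authors had normalized read counts to depth and added 1 before the logarithm. The submitters' processing notes name Bowtie2 and TAIR10. Exon counting with ngsutils, partial counting of reads with several locations and a filter on covered length are stated for hand-picked cells, and whether they were applied to CEL-Seq is not given in the sources used here. Counts were recovered as whole multiples of 1 step per profile (largest distance from a whole number 0.00157 of a step, smallest count above 0 of 2) and scaled to CPM over *Arabidopsis* loci, without the 91 ERCC spike-in rows and the reporters. Levels carry 95% exact Clopper-Pearson intervals of the recovered count. No test across samples was run, since there was 1 group and the profiles were nested. Ratios of counts carry exact binomial intervals.

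Transcript lengths, overlaps and sequences came from the TAIR10.1 genome and RefSeq annotation (26712 loci with a coding model), using the transcript with the longest coding sequence. TAIR10.1 is not the build named by the labels, and the table gives no coordinates. Names matched the gene table for all 9 genes, and 5 of 62 pathway genes were left out because their names were not found there (*CLE46* and *CIK1* to *CIK4*). Named genes were the 9 loci, the 3 highest of each pathway list, *WOX5*, and the 3 loci most correlated over steps with each receptor that gained counts at 20 or more steps. The genes and lists were chosen with earlier results of these data known. Marker lists were taken likewise. Alternatives covered the detection limit, the scaling, the coding length and the profile. Count recovery, the chi-square and the correlation were tested on simulated data. Python 3.11.15, numpy 2.4.6, pandas 2.3.3, scipy 1.17.1, Biopython 1.88 and matplotlib 3.10.9 were used.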

Additional observations from a re-analysis of the deposited data

Results flagged for a closer look

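The ERCC rows are synthetic spike-in RNAs, which entered the levels of the 9 genes only as part of an alternative total. They made up 4.97% of all counts at the greatest depth (QC cell 22), where 70 of the 91 were above 0. This is a signal in rows outside the main measurement, and there were no control samples to set it against.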

How the results depend on the processing

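A level or ratio was taken as moved when it left its 95% counting interval, and a number of genes or profiles beyond 1.5 times. Of 37 values recomputed with another detection limit, scaling or profile, 27 stayed within this tolerance, 10 moved and 0 reversed, and 3 values under an alternative chosen after seeing the data (counts added after first appearance) stayed within it. The order of the 4 receptors was the same in CPM and per coding kilobase. The other totals divide all 4 genes alike and could not change it. The shallower profiles had the same order, but they are contained in the deepest and are no independent check. Without the rRNA loci, which held 13.9% of the counts, *CRN* had 130.6 CPM, *BAM1* 74.7 CPM and the 8 receptors 223.6 CPM, since the total is smaller. Per coding kilobase the values were 93.3 for *CRN*, 21.4 for *BAM1*, 4.07 for *BAM2* and 1.01 for *RPK2*, which is a change of unit, and the ratio of *CRN* to *BAM1* was 4.37. At the median depth *RPK2* had 5.25 CPM from 11 counts, and the cause was not tested. With a limit of 10 CPM, 16 pathway genes were detected. *RPK2* rests on the fewest counts of the 4 receptors (26), and no upper limit is given for the 5 genes at 0.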
